A study of Mus musculus with 6 samples.

Results

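Neuroligins and leucine-rich repeat transmembrane proteins (LRRTMs) on the receiving side of the synapse, and the secreted cerebellins, are among the best known binding partners of neurexins. They were described here at the level of gene expression in the E18.5 mouse cortex lacking the RNA binding proteins Sam68 and SLM2. The members were named by family: *Nlgn1*, *Nlgn2* and *Nlgn3*, *Lrrtm1* to *Lrrtm4*, and *Cbln1*, *Cbln2* and *Cbln4*. Of these 10 genes, 9 have a feature of their own among the 59484 features of the table, and *Nlgn3* shares its feature with *Med12*. PolyA+ RNA was sequenced from the cortex of wild-type and *Sam68:Slm2* double knockout (dKO) C57BL/6 embryos at E18.5, with 3 libraries per genotype. In the study, both genes were ablated in the whole animal, and dKO offspring came from intercrosses of mice carrying a single functional *Sam68* allele and no functional *Slm2* allele. Such crosses yield no wild-type embryos, so that the controls were not littermates from these crosses. Nothing in the labels says whether each library is a separate embryo, and *P*-values measure the spread between these libraries only.

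Neurexins are presynaptic adhesion proteins whose extracellular part reaches across the synaptic cleft. Their alternatively spliced segment 4 (AS4), an exon controlled by Sam68 and SLM2, sets which partners they bind. LRRTM1 and LRRTM2 bind neurexins that lack the AS4 insert, cerebellins bind those that carry it, and neuroligins bind both with an affinity that the insert changes. The question addressed here is whether the partner genes themselves differed in expression between the genotypes, and not how any exon was spliced, since the deposited values count whole genes.

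Each value is a normalized count, that is, the reads on a gene divided by the size factor of its library. Libraries hold between 31837922 and 40896541 reads on the listed features, and a single read is worth between 0.877 and 1.16 normalized counts. The targeted *Khdrbs1*, which encodes Sam68, had a log2 fold change (dKO minus wild-type) of -5.78, and *Khdrbs3*, which encodes SLM2, of -1.05. Excitatory cortical markers such as *Neurod6* were abundant in every library, between 45180.0 and 71754 normalized counts. In contrast, none of the 8 hindbrain and cerebellar markers reached the minimum mean of 10. The hindbrain and cerebellar sum was 81.8 normalized counts in wild-type 1, of which *Barhl1* held 49.5, and 11.6 to 29.3 in the other libraries. In libraries wild-type 1 and dKO 1, the deviation of a gene from its mean over libraries increased with its exon length (Spearman correlation across genes of 0.22 and 0.31, against values from -0.23 to -0.10 in the other 4 libraries).

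No difference between the genotypes passed the test for any of the 9 ligand genes. All reached the minimum mean of 10, 0 of 9 had an adjusted *P*-value under 0.05, and the background share of all 18970 tested features at this threshold is 0.1% (0.0527% higher and 0.0474% lower in dKO cortex). The same count of 0 was obtained with edgeR and with DESeq2. At an unadjusted *P*-value under 0.05 the count was 0 of 9 from limma and from edgeR, against a background of 11.5% with limma, and 1 of 9 from DESeq2, namely *Cbln4*. The dKO and wild-type values overlapped for every one of the 9 genes, where 16.4% of all features had no overlap (8.48% with dKO below and 7.89% with dKO above wild-type). Log2 fold changes ran from -0.58 for *Cbln4* to 0.15 for *Lrrtm2* with a median of -0.04, and the median over all tested features was 0.00. Below 0 were 5 of 9 members, beside 49.4% of all features. In bulk cortex, fewer cells of a type and less RNA per cell cannot be told apart.

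**Figure D1:**
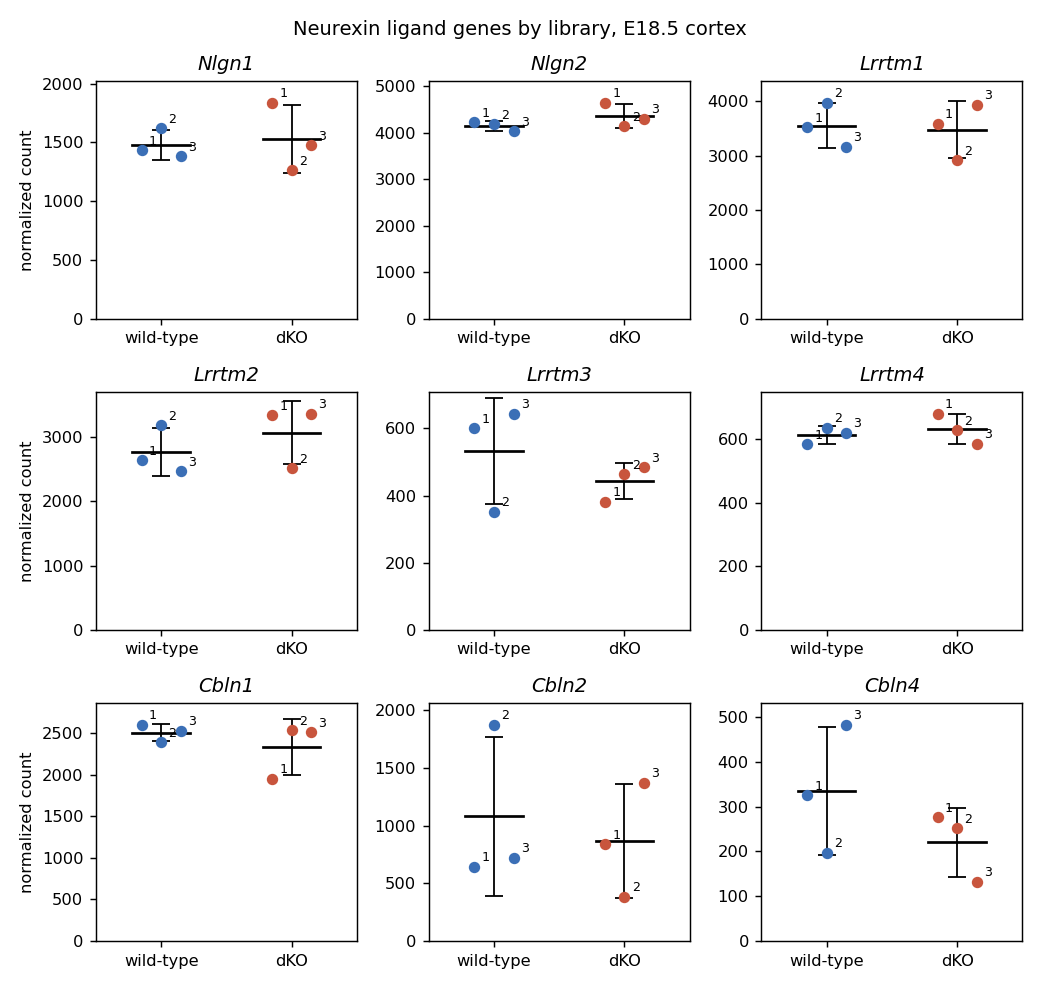
Normalized counts of the 9 neurexin ligand genes in each library (points, numbered by replicate), with the mean (bar) and SD (whiskers) of 3 libraries per genotype; each vertical axis starts at 0. Wild-type and dKO points overlap in every panel, closely for *Nlgn2* and *Lrrtm4* and over a wide range for *Cbln2* and *Cbln4*.

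The neuroligins are postsynaptic transmembrane proteins that bind neurexins through a domain related to acetylcholinesterase. *Nlgn1* (FAST database identifier GSMG0025214, mm10 chr3:25421808-26331909, minus strand), whose protein is found at excitatory synapses, had 1431, 1621 and 1381 normalized counts in wild-type and 1839, 1265 and 1476 in dKO cortex. The highest and the lowest of the 6 libraries were both dKO. Its log2 fold change was 0.03 (standard error, SE, 0.13, adjusted p = 0.940, limma; exact two-sided permutation p = 0.8), and the 95% interval of the fold change, dKO over wild-type, was 0.837 to 1.25. *Nlgn2* (GSMG0006888, chr11:69823122-69837786, minus strand), which encodes the neuroligin of inhibitory synapses, was the steadiest of the 9 genes. It had 4223, 4179 and 4026 normalized counts in wild-type and 4643, 4140.1 and 4294 in dKO cortex, which left the highest library 1.15-fold above the lowest. The log2 fold change of *Nlgn2* was 0.07 (SE 0.08, adjusted p = 0.735, limma; exact permutation p = 0.3), and its interval of 0.934 to 1.18 in fold was the narrowest of the 9. Of all tested features, 93.1% had a larger spread among replicates than *Nlgn2*.

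*Nlgn3*, which encodes a neuroligin found at both kinds of synapse and is linked to autism in humans, could not be separated from its neighbour. A feature listed as both *Med12* and *Nlgn3* (GSMG0041961, chrX:101274091-101321348) covers the Mediator subunit gene *Med12* and most of *Nlgn3*. It had 1273, 871 and 975 normalized counts in wild-type and 1243, 1113 and 1090.3 in dKO cortex, a log2 fold change of 0.16 (SE 0.13, adjusted p = 0.660, limma). The dKO values lay inside the range of the wild-type values. A second feature without a symbol (GSMG0041962, chrX:101322672-101325956) falls wholly within the last exon of *Nlgn3* as GENCODE M21 annotates it, which spans chrX:101319419-101325963 on the plus strand. It had 1967, 1293 and 1575 normalized counts in wild-type and 1874, 1788 and 1414 in dKO cortex. Its log2 fold change was 0.08 (SE 0.16, adjusted p = 0.861, limma; exact permutation p = 0.8). Wild-type 1 was the highest library for both features, and the genotypes overlapped for both.

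**Figure D2:**
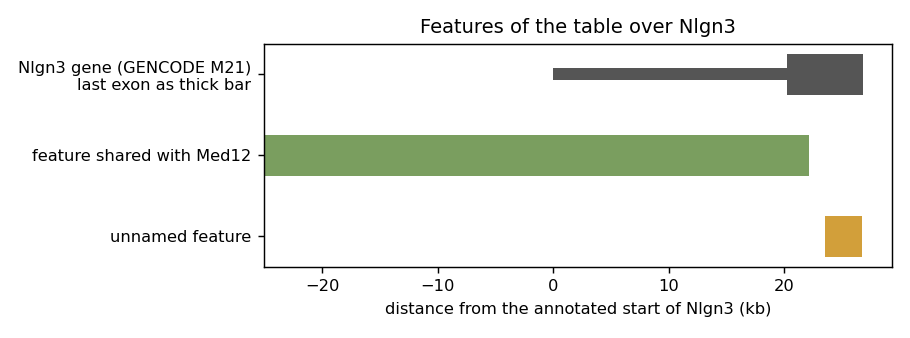
Extent of the annotated *Nlgn3* gene (GENCODE M21, last exon as a thick bar) and of the 2 features of the table that cover it, along the distance in kb from the annotated start of *Nlgn3*. The feature shared with *Med12* runs off the left edge, and the unnamed feature lies wholly within the last exon.

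The LRRTMs are postsynaptic proteins that organise excitatory synapses, and 3 of their 4 genes lie within the span of an alpha-catenin gene. *Lrrtm1* (GSMG0032079, chr6:77242477-77259915, plus strand) had 3522, 3976 and 3163 normalized counts in wild-type and 3592, 2912 and 3937 in dKO cortex. The lowest and the next to highest library were both dKO. The log2 fold change of *Lrrtm1* was -0.04 (SE 0.12, adjusted p = 0.930, limma; exact permutation p = 0.9; fold 0.810 to 1.18). *Lrrtm2* (GSMG0018837, chr18:35209003-35215026, minus strand), whose protein helps to hold AMPA receptors at the synapse, had 2645, 3192 and 2474 normalized counts in wild-type and 3341, 2514 and 3367 in dKO cortex. Both higher dKO libraries lay above all wild-type libraries, and dKO 2 lay among the wild types. Its log2 fold change was 0.15 (SE 0.13, adjusted p = 0.681, limma; exact permutation p = 0.3; fold 0.904 to 1.35), and it was 0.28 without dKO 2, at an unadjusted p of 0.0360 and an adjusted p of 0.380 from limma.

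*Lrrtm3* (GSMG0004184, chr10:63928497-64090276, minus strand) was lower and more variable, with 601, 352 and 643.5 normalized counts in wild-type and 382, 463 and 485 in dKO cortex. All dKO values fell between the lowest and the next wild-type library. Its log2 fold change was -0.22 (SE 0.21, adjusted p = 0.700, limma; exact permutation p = 0.4; fold 0.618 to 1.19). This value depended on single wild-type libraries: it was -0.06 without wild-type 3, and -0.49 without wild-type 2, with an unadjusted p of 0.00638 and an adjusted p of 0.190 from limma. *Lrrtm4* (GSMG0032087, chr6:80018877-80810143, plus strand), whose protein also binds heparan sulfate chains of glypicans and neurexins, had 584, 637 and 621 normalized counts in wild-type and 681, 629.5 and 587 in dKO cortex. These 6 values lay within 1.17-fold of each other. The log2 fold change of *Lrrtm4* was 0.04 (SE 0.11, adjusted p = 0.903, limma; exact permutation p = 0.6; fold 0.873 to 1.21).

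The alpha-catenins that host the LRRTM genes are transcribed from the opposite strand. The libraries keep the strand of the RNA, but the strand setting of the counting is not given in the sources used here, and reads of host and nested gene could be told apart only if it was used. *Ctnna1*, which contains *Lrrtm2*, had 2436, 2363 and 2602 normalized counts in wild-type and 3208, 2623 and 2808 in dKO cortex. Its genotypes did not overlap, with a log2 fold change of 0.22 (SE 0.09, unadjusted p = 0.0385 and adjusted p = 0.407, limma). Its part in the values of *Lrrtm2* was not tested. *Ctnna2*, which contains *Lrrtm1*, had a log2 fold change of 0.17 (SE 0.08, adjusted p = 0.461, limma) at a mean of 8551 normalized counts. *Ctnna3*, which contains *Lrrtm3*, was nearly silent, between 0.951 and 6.14 normalized counts.

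Cerebellins are secreted proteins of the C1q family that bridge presynaptic neurexins and postsynaptic delta glutamate receptors. *Cbln1* (GSMG0038727, chr8:87468405-87473083, minus strand), known as the organiser of parallel fibre synapses in the cerebellum, had 2599, 2392 and 2531 normalized counts in wild-type and 1950.2, 2534 and 2515 in dKO cortex. Only dKO 1 lay apart from the other 5 libraries, which ran from 2392 to 2599. The log2 fold change of *Cbln1* was -0.11 (SE 0.11, adjusted p = 0.696, limma; exact permutation p = 0.6; fold 0.784 to 1.09), and it was 0.01 without dKO 1. The non-coding gene *Gm2694*, which overlaps the start of *Cbln1*, held a mean of 36.4 normalized counts.

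*Cbln2* (GSMG0018664, chr18:86711061-86718283, plus strand), a cerebellin of forebrain neurons, was the most variable member, with 642, 1873 and 722 normalized counts in wild-type and 838, 385 and 1371 in dKO cortex. The highest library, wild-type 2, held 4.87 times the lowest, dKO 2, and both genotypes spanned most of this range. Its log2 fold change of -0.32 (SE 0.67, adjusted p = 0.875, limma; exact permutation p = 0.7) had an interval of 0.239 to 2.67 in fold, which is too wide to place the gene on either side of no change. It was 0.16 without wild-type 2 and 0.17 without dKO 2. Only 3.92% of tested features had a larger spread among replicates.

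*Cbln4* (GSMG0023957, chr2:172036229-172043468, minus strand), a cerebellin known from inhibitory synapses, had 325, 197 and 482 normalized counts in wild-type and 276, 252 and 132 in dKO cortex. The highest library was wild-type 3 and the lowest dKO 3, while wild-type 2 lay below both other dKO libraries. Its log2 fold change of -0.58 was the furthest from 0 among the members (SE 0.36, adjusted p = 0.559, limma; exact permutation p = 0.4; fold 0.381 to 1.18). DESeq2 gave an unadjusted p of 0.0470 and an adjusted p of 0.422. The log2 fold change was -0.92 without wild-type 2, with an unadjusted p of 0.0172 and an adjusted p of 0.254 from limma, and it was -0.25 without dKO 3 and -0.27 without wild-type 3. Of the 8 interneuron and ganglionic eminence markers, 4 were also highest in wild-type 3 and 4 were highest in a dKO library. The somatostatin gene *Sst* had 4924 normalized counts in wild-type 3 and 1997 to 2451 in the other 5 libraries. Wild-type 3 was also highest for the radial glia markers *Hes1*, *Hes5*, *Slc1a3* and *Hopx* and the endothelial markers *Cdh5*, *Kdr*, *Flt1* and *Tie1*. The other markers of these lists were highest elsewhere. The excitatory marker *Slc17a7* ordered all libraries as *Cbln4* did, and the other excitatory markers were highest in a dKO library. The part of these cell types in the values of *Cbln4* was not tested.

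**Figure D3:**
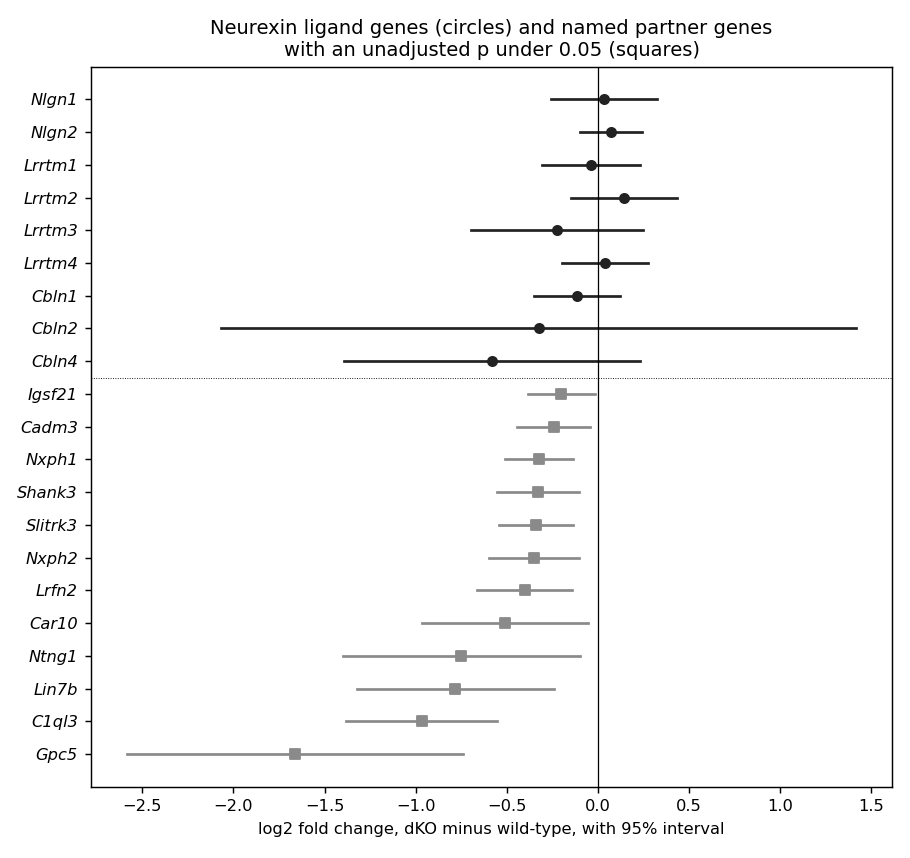
Log2 fold changes (dKO minus wild-type, limma) with 95% intervals for the 9 neurexin ligand genes (circles) and for 12 named partner genes with an unadjusted *P*-value under 0.05 (squares). All 9 ligand intervals include 0, from the narrow one of *Nlgn2* to that of *Cbln2*; the 12 squares were selected by their *P*-value and lie below 0.

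Levels were then compared between the genes as normalized counts per kb of exon, over all 6 libraries. *Lrrtm1* was the highest, at 1160 ± 139 per kb (SD, n = 6 libraries), above 89.7% of the 14280 tested features with a known exon length. *Cbln1* followed at 797 ± 79.0 and *Nlgn2* at 735 ± 36.6 per kb, and their ranges of 642 to 856 and 696 to 803 overlapped. *Lrrtm2* came next at 485 ± 70.1 per kb, with all libraries below those of *Nlgn2*. *Cbln2* had 336 ± 190 per kb, and its range of 133 to 647 took in that of *Lrrtm2*. The remaining genes were *Lrrtm3* at 115 ± 27.3, *Nlgn1* at 112 ± 15.0, *Lrrtm4* at 101 ± 5.82 and *Cbln4* at 95.6 ± 41.5 per kb. These 4 genes overlapped one another and lay below the median of all features, 136 per kb. The ranges of neighbours in this order were separate only between *Lrrtm1* and *Cbln1* and between *Nlgn2* and *Lrrtm2*. *Cbln2* lay above *Lrrtm3* within each of the 6 libraries, although their ranges overlapped. With the longest coding transcript as length, *Lrrtm4* had 140 and *Nlgn1* 127 per kb, which changes the order of the lowest 4 genes.

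**Figure D4:**
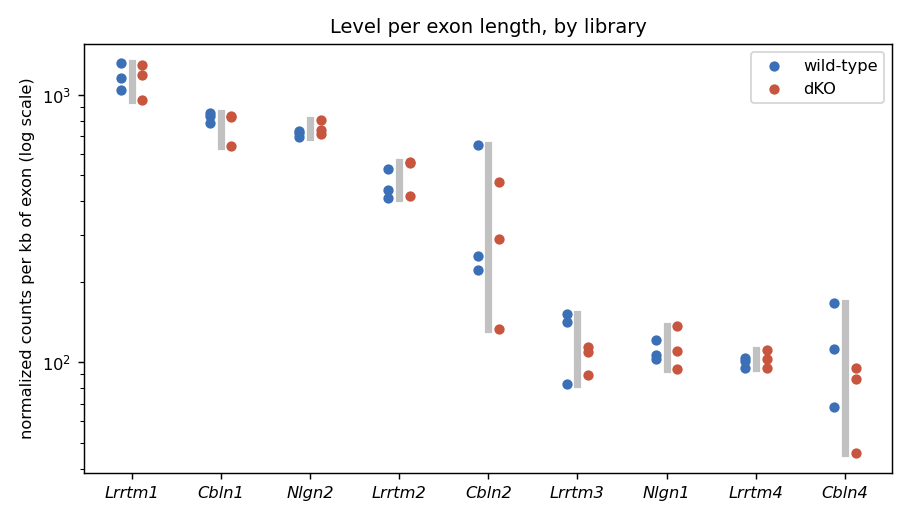
Normalized counts per kb of exon (log axis) of the 9 neurexin ligand genes in 3 wild-type and 3 dKO libraries (points), ordered by mean, with a grey bar from the lowest to the highest library. *Lrrtm1* stands above the rest, *Cbln1* and *Nlgn2* overlap, and the 4 genes on the right overlap one another.

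The make-up of each family was read from the same per kb values. *Nlgn1* and *Nlgn2* together had 826 ± 24.0 per kb in wild-type and 867 ± 66.1 in dKO libraries (SD, n = 3 per genotype). *Nlgn2* made up 86.7% ± 0.873 of that sum in wild-type and 87.0% ± 1.47 in dKO cortex. The LRRTM sum was 1857 ± 162 in wild-type and 1865 ± 247 in dKO cortex, with *Lrrtm1* at 63.0% ± 1.77 and 61.4% ± 1.23 of it. The share of *Lrrtm2* was 23.9%, 26.1% and 24.1% in wild-type and 28.6%, 26.3% and 27.1% in dKO cortex. These ranges did not overlap, by a margin small beside their spread, and they are the only ones of the 9 shares that did not. Cerebellins summed to 1314 ± 166 in wild-type and 1143 ± 178 in dKO cortex. *Cbln1* was the largest share of the cerebellins in every library, from 52.4% in wild-type 2 to 79.1% in dKO 2, and the share of *Cbln2* ran the other way, from 43.1% in wild-type 2 to 12.6% in dKO 2.

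The libraries were ordered alike in several members, across the genotypes rather than between them. For *Nlgn1*, *Lrrtm1*, *Lrrtm2* and *Cbln2*, the 3 highest libraries were wild-type 2, dKO 1 and dKO 3, which holds for 6.79% of all features. The same 3 libraries were the lowest for *Cbln1*, which holds for 8.33% of features. This order was noticed in the values and is given as a description. It was also the order of 3 of 8 excitatory neuron markers, *Neurod6*, *Neurod2* and *Fezf2*. *Neurod6*, a transcription factor of cortical projection neurons, had 45733, 66252 and 45180.0 normalized counts in wild-type and 63292, 48918 and 71754 in dKO cortex. Of the interneuron markers, 3 of 8 had these libraries lowest, among them *Gad1*, as did 3 of 8 radial glia markers. The same held for the oligodendrocyte precursor markers *Olig2*, *Pdgfra* and *Sox10*, but not for *Olig1* or *Cspg4*. It also held for the endothelial markers *Cldn5* and *Flt1*, but not for *Pecam1*, *Cdh5*, *Kdr* or *Tie1*. The part of cell composition in the values of the ligand genes was not tested.

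**Figure D5:**
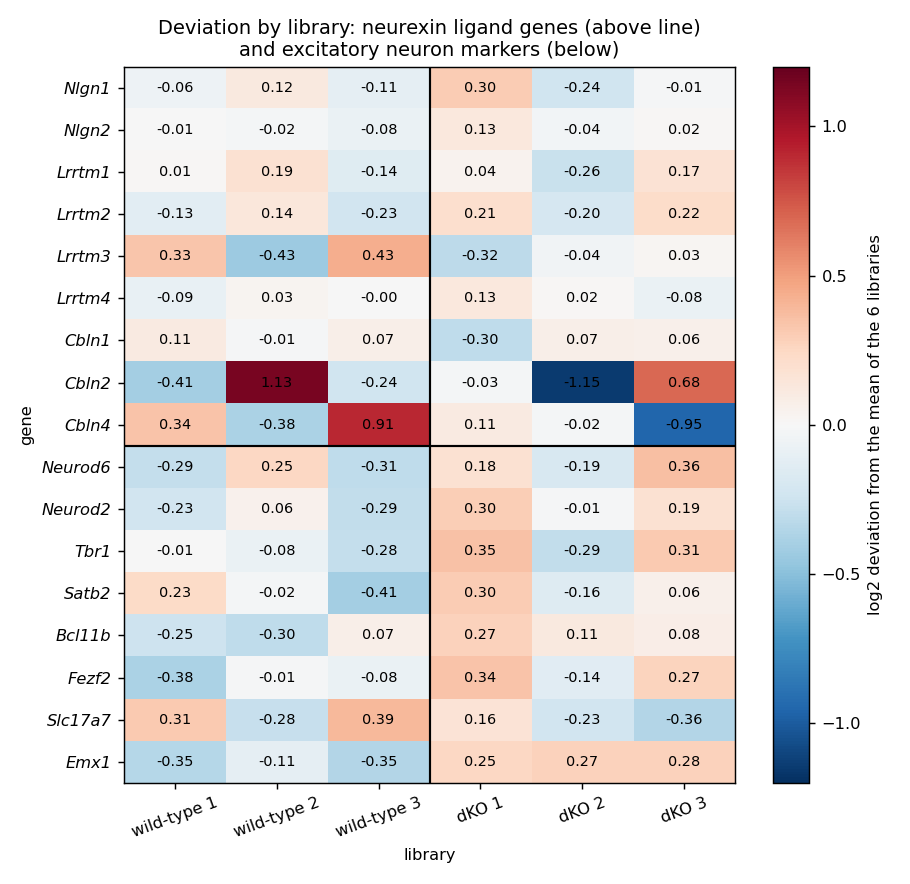
Log2 deviation of each library from the mean of the 6 libraries for the 9 neurexin ligand genes (above the line) and the 8 excitatory neuron markers (below), wild-type on the left and dKO on the right. *Cbln2* reaches 1.13 in wild-type 2 and -1.15 in dKO 2, and *Cbln4* reaches 0.91 in wild-type 3 and -0.95 in dKO 3, whereas *Nlgn2* stays within 0.13 of its mean.

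Leaving out both replicate 1 libraries, which stood apart in their dependence on exon length, changed the direction of some small differences. Between this pair alone, log2 differences were 0.36 for *Nlgn1*, 0.34 for *Lrrtm2*, -0.41 for *Cbln1* and -0.65 for *Lrrtm3*. Without them, the fitted changes were -0.13, 0.05, 0.04 and -0.01 in the same order, so that *Nlgn1* and *Cbln1* changed sign from the fit of all libraries. *Lrrtm4* did so too, with 0.22 between the pair and -0.05 without it. Without dKO 1 alone, *Nlgn1*, *Cbln1* and *Lrrtm4* also changed sign, to -0.11, 0.01 and -0.01. Without wild-type 1 alone they kept their sign, at 0.01, -0.09 and 0.006. In the limma fit of all libraries corrected for exon length, these genes also kept their sign, at 0.002, -0.12 and 0.04. *Cbln2* had 0.38 between the pair and -0.68 without it, the widest gap of the 9 genes, and *Cbln4* had -0.24 and -0.75. *Nlgn2* and *Lrrtm1* had 0.04 and -0.07 without the pair.

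The ligands act together with neurexins, receptors, proteoglycans, scaffolds and other adhesion proteins, for which 75 genes were listed. Of these, 74 were tested, and 0 passed the adjusted threshold with limma or edgeR, whereas DESeq2 gave 2, *C1ql3* and *Gpc5*. At an unadjusted *P*-value under 0.05, 14 of 74 (18.9%) were lower in dKO cortex and 0 were higher, against backgrounds of 6.58% and 4.92% of all features. Their adjusted *P*-values from limma lay between 0.138 and 0.401. Over all 74 partner genes, the genotypes did not overlap in 15 with dKO below wild-type (20.3%, beside 8.48% of all features) and in 3 with dKO above. In all, 53 of 74 partner genes (71.6%) had a log2 fold change below 0, with a median of -0.10, beside 49.4% of all features. These shares are given as a description, because the list was chosen with earlier results of these data known. With both replicate 1 libraries left out, 9 of 74 (12.2%) passed the unadjusted threshold, beside 9.36% of all features in that fit.

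Among the neurexins, *Nrxn2* and *Nrxn3* had log2 fold changes of 0.07 and -0.19. Of 18 other neurexin ligands tested, 5 passed the unadjusted threshold: *Nxph1* and *Nxph2*, which encode the secreted neurexophilins, *C1ql3*, *Igsf21* and *Car10*. *C1ql3*, a secreted C1q family protein like the cerebellins, had 612, 758 and 1012 normalized counts in wild-type and 484, 357 and 363 in dKO cortex. Every dKO library lay below every wild-type library, and the log2 fold change of *C1ql3* was -0.97 (SE 0.19, adjusted p = 0.138, limma; 0.000205, DESeq2); leaving out single libraries moved the limma value between 0.0608 and 0.508. *Nxph1* had 1870, 1748 and 1901 normalized counts in wild-type and 1415, 1559 and 1442 in dKO cortex, a log2 fold change of -0.32 (SE 0.08, adjusted p = 0.273, limma). *Nxph2*, *Igsf21* and *Car10* had log2 fold changes of -0.35, -0.20 and -0.51. The most abundant genes of this list, the dystroglycan gene *Dag1* and the latrophilin gene *Adgrl1*, had log2 fold changes of -0.04 and 0.06. *Cbln3*, the remaining cerebellin gene, was close to the minimum level, with 15.2, 6.44 and 8.77 normalized counts in wild-type and 17.2, 20.9 and 20.9 in dKO cortex (adjusted p = 0.475, limma).

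*Grid1*, which encodes a delta receptor that cerebellins bind, had a log2 fold change of -0.30 (adjusted p = 0.534, limma). Of 3 genes listed for heparan sulfate binding by LRRTM4, *Gpc4* and the receptor phosphatase gene *Ptprs* had log2 fold changes of 0.09 and 0.06. The third, *Gpc5*, was low, with 93.2, 34.4 and 52.6 normalized counts in wild-type and 13.6, 23.0 and 15.1 in dKO cortex. Its genotypes did not overlap, with a log2 fold change of -1.66 (SE 0.42, adjusted p = 0.263, limma; 0.0292, DESeq2), on as few as 13 reads in a library. The neuroligin inhibitor *Mdga1* and the sheddase gene *Adam10* had log2 fold changes of 0.00 and 0.04, and 0 of the 4 genes of this group passed the unadjusted threshold. Among the 15 postsynaptic scaffold genes, *Shank3* passed it, with a log2 fold change of -0.33. The abundant scaffolds *Dlg4*, which encodes PSD-95, and *Shank1* had -0.08 and -0.09. Of 6 genes for proteins that bind the neurexin tail directly or indirectly, *Lin7c* and *Apba1* had log2 fold changes of -0.00 and -0.08. Only *Lin7b* of this group passed the unadjusted threshold (log2 fold change -0.78). Among 23 other adhesion genes, 4 passed it: *Slitrk3* (-0.34), *Lrfn2* (-0.40), *Ntng1* (-0.75) and *Cadm3* (-0.24), and the most abundant, *Lrrc4b* and *Flrt2*, had 0.00 and -0.05.

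None of the markers of other cell types passed the adjusted threshold with limma, and their values are given beside those of the partner genes. Of all features, 6.58% were lower and 4.92% higher in dKO cortex at the unadjusted threshold, and 49.4% had a log2 fold change below 0. All 5 oligodendrocyte precursor markers had log2 fold changes below 0, with a median of -0.67 and 3 of 5 at an unadjusted *P*-value under 0.05. Their sum was 6865 to 11942 normalized counts in the wild-type libraries, and 3804 to 6466 after loss of both proteins. *Olig1* and *Olig2* held most of this sum, at means of 4317 and 2130 normalized counts. The genotypes did not overlap for *Olig1*, and they overlapped for *Olig2*, *Pdgfra*, *Sox10* and *Cspg4*. All 6 endothelial markers were also below 0, with 2 of 6 at the unadjusted threshold and a median of -0.20. They ran from -0.03 for *Cldn5* to -0.76 for *Flt1*. Of 8 excitatory neuron markers, 4 passed the unadjusted threshold, all higher in dKO cortex, with a median of 0.28, and their summed levels overlapped, 98306 to 130062 against 109519 to 143196. The 8 pan-neuronal markers went both ways, with 3 higher and 1 lower in dKO cortex at the unadjusted threshold and a median of -0.04. Of 8 radial glia markers, 2 were higher at that threshold, *Pax6* and *Vim*, and the median was -0.01. The medians were -0.04 for interneuron markers, 0.02 for the 7 thalamic markers tested, -0.60 for the 3 choroid plexus markers tested and 0.20 for the 4 erythroid markers tested. In the thalamic list, *Lhx2* and *Slc17a6* had means of 6246 and 903 normalized counts. The other thalamic markers tested ran from 36.7 for *Lhx9* to 274 for *Rora*. The median of this list was not taken as a measure of thalamic tissue. The choroid plexus markers *Clic6*, *Aqp1* and *Otx2* were near the minimum level, with means of 16.3, 16.9 and 14.3 normalized counts. Their log2 fold changes were -0.73, -0.60 and 0.58. *Clic6* had 56.1 normalized counts in wild-type 3 and 3.63 to 20.9 in the other libraries. The part of these cell types in the values of the ligand and partner genes was not tested.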

How the data were processed

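PolyA+ RNA-seq libraries of the E18.5 cortex (3 wild-type, 3 dKO; stranded mRNA kit, paired-end) were grouped by their labels. The deposited signal is, for each FAST database gene, the reads counted by the authors over the size factor of the library. The submitters' processing notes name FastQC, Picard, SAMtools, STAR 2.7.5a, DESeq2 and mm10; the counting program is not given in the sources used here. In each library 100.0% of positive values were whole multiples of 1 read (tolerance 0.01), and these reads were recovered. Genotypes were compared with limma 3.58.1 (trend and robust; R 4.3.3) on log2(normalized count + 1), which understates changes of low genes, over the 18970 of 59484 features with a mean of at least 10, with Benjamini-Hochberg adjustment, and by exact two-sided permutation tests, where 0.1 is the smallest *P*-value. edgeR 4.0.16 (quasi-likelihood) and DESeq2 1.42.0 were run on the recovered reads. Scripts were tested on simulated data. Exon lengths came from GENCODE M21 and covered 97.8% of tested features with a symbol. Members and gene lists were chosen with earlier results of these data known. Named were all members, their catenin hosts, partner genes with an unadjusted *P*-value under 0.05 and the most abundant of each list (2 genes, 3 for neurexins); *Cbln3*, *Gm2694* and single markers were named after their values were seen. Results on some single partner genes are not reported here, and splicing was not analysed.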

Additional observations from a re-analysis of the deposited data

How the results depend on the processing

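Under every alternative run (pseudocounts, filters, scalings, limma without trend and robust, edgeR, DESeq2, replicate block, length correction, libraries left out), 0 of 9 ligand genes had an adjusted *P*-value under 0.05, and the smallest was 0.190, for *Lrrtm3* without wild-type 2. Members with an unadjusted *P*-value under 0.05 numbered 0 with limma, 1 with DESeq2 and 0 to 2 with each library left out (2 without wild-type 2, *Lrrtm3* and *Cbln4*; 1 without dKO 2, *Lrrtm2*). Log2 fold changes reversed without both replicate 1 libraries for *Nlgn1* (-0.13), *Lrrtm4* (-0.049) and *Cbln1* (0.037). With each library left out they ranged from -0.11 to 0.16 for *Nlgn1*, -0.13 to 0.088 for *Lrrtm1*, -0.013 to 0.093 for *Lrrtm4*, -0.18 to 0.010 for *Cbln1* and -0.75 to 0.17 for *Cbln2*; *Nlgn2*, *Lrrtm2*, *Lrrtm3* and *Cbln4* kept their direction. Partner genes numbered 0 at the adjusted threshold, 2 with DESeq2, and 14 at the unadjusted threshold, 9 without both replicate 1 libraries and 10 to 18 with each library left out. All features at the adjusted threshold numbered 19, with 7 without trend and robust, 202 with DESeq2, 9 with the replicate block, 12 with length correction and block, 5 without both replicate 1 libraries, and 7 (without dKO 3) to 46 (without dKO 1) with each library left out, including 8 without wild-type 1, 32 without wild-type 2 and 10 without wild-type 3. The causes were not tested. Libraries of the same replicate number did not deviate together (correlations 0.098, -0.228 and -0.079), so the numbers were not taken as pairs; the block gave 0 members and 16 partner genes at the unadjusted threshold. With the longest coding transcript as length, levels per kb moved to 127 for *Nlgn1*, 1384 for *Lrrtm1* and 140 for *Lrrtm4*. The *Nlgn3* features were fitted once, without alternatives. With 3 libraries a group, precision was limited by the spread between libraries for *Cbln2* and *Cbln4*, which had at least 114 reads in every library.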
